A study of Mus musculus with 12 samples.

Results

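The genes described here are 33 genes of cholesterol and fatty acid synthesis, chosen by gene symbol from the deposited count table, which lists 35976 genes. All 33 were found. By role they comprise 8 genes of the mevalonate stage, 3 of the squalene stage and 8 of the stage from lanosterol to cholesterol. The others are 5 regulators, 1 sterol transfer gene and 8 genes of fatty acid synthesis and desaturation. The regulators are Srebf1 and Srebf2, which encode the sterol regulatory element binding proteins (SREBPs), and Scap, Insig1 and Insig2, whose products act on SREBPs. The study concerned adhesion molecule signalling in the growth of abnormal retinal vessels, and sequenced mouse retinas to follow chemokine genes in oxygen-induced retinopathy (OIR), in which pups kept in high oxygen lose retinal capillaries and the retina becomes relatively hypoxic on return to room air. Retinal mRNA was sequenced from the 3' end in 12 libraries, 3 in each of 4 groups. Retinas labelled WT came from C57BL/6 pups, either kept in normoxia (21% oxygen) or exposed to 75% oxygen from postnatal day 7 to 12 and then returned to room air for 3 days, and were taken at postnatal day 15. Retinas labelled Casp1 KO came from mice said to lack Caspase1, in normoxia or 3 days after OIR. Their allele, strain background, age and oxygen level are not given in the sources used here. How many animals a library holds is not given either, so p-values rest only on the spread between these libraries, which may be technical. The fit shares that spread among genes, so a gene's p-value and standard error need not follow the scatter of its own replicates.

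Cholesterol is built from acetyl-CoA through mevalonate, farnesyl diphosphate, squalene and lanosterol, and fatty acids are built from the same precursor by acetyl-CoA carboxylase and fatty acid synthase. The transcription factors SREBP1 and SREBP2 switch on both routes: when membrane sterol is low the escort protein SCAP carries them to the Golgi for cleavage, and when sterol is ample the INSIG proteins hold them in the endoplasmic reticulum. In the retina, cholesterol is made locally and is also taken up from the blood, and photoreceptor membranes are rich in polyunsaturated fatty acids.

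Total counts ran from 3391203 to 22815830 per library. Rod markers made up 32200 to 39100 CPM (read counts divided by each library's effective size on a shared scale) in every library, with reads for all 5 of them, as a retina should have. Casp1 itself went against the labels: the 6 WT libraries held 7 of its reads and the 6 Casp1 KO libraries 126. The deleted part of the gene is not given, so reads from the 3' end may lie outside it. Which retinas lack Caspase1 cannot be told from these reads, and the group names below are those of the labels. WT OIR replicate 3 stood apart, with counts that differed from those of its replicates by a chi-square of 15.2 and 14.2 for each degree of freedom, where the other pairs of replicates lay between 3.49 and 9.46. Where leaving it out moved a member across the threshold, the value without it is given. Exons of 12 members overlap another annotated gene, among them Hmgcs1, Lss and Elovl6 on the other strand and Fdps on the same strand, and their counts are uncertain to that extent.

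The sequence around the start of each gene is shown first, since its letters can be set against those of all other genes. RefSeq start windows of 300 bases (250 before and 50 after the start, GRCm38.p6) were at hand for 26 of the 33 members, and Sqle, Fdps, Fdft1, Stard4, Scd1, Scd2 and Fads1 had no entry. In all, 5 motifs were searched on both strands. The SRE core TCACCCCAC, letters that SREBPs bind, was in the window of 1 of 26 members, Hmgcs1, at position -137 from the start, and in 0.614% of all 27025 genes with a window. The looser form TCACNCCAC, which includes the core, added no member and was in 1.44% of genes. The NF-Y box CCAAT, bound by a factor that works beside SREBPs, was in 21 of 26 members (80.8%) against 41.1% of all genes and 42.3% of protein-coding ones. The GC box GGGCGG, bound by Sp1, was in 21 of 26 members (80.8%) against 38.2% of all genes and 49.2% of protein-coding ones. The E-box CACGTG was in 5 of 26 (Hsd17b7, Sc5d, Dhcr7, Scap and Insig1, 19.2%) against 8.09% of all genes. A match describes letters only, not a bound site. The 5 members without a CCAAT in any window were Acat2, Scap, Acaca, Elovl6 and Fads2. Below are the windows of the 6 members with an entry that changed in at least 1 comparison, and that of Insig1, whose groups separated in both genotypes. Capitals mark the SRE core, CCAAT on either strand (ATTGG on the minus strand) and CACGTG. Pmvk has a further annotated start, whose window held none of these motifs. The windows of Hmgcs1, Lss, Msmo1, Srebf2 and Insig1 hold CCAAT, that of Pmvk has 1 copy at position -136, and the window of Elovl6 has none of the motifs.
Hmgcs1, chr13:119690101-119690400, plus strand: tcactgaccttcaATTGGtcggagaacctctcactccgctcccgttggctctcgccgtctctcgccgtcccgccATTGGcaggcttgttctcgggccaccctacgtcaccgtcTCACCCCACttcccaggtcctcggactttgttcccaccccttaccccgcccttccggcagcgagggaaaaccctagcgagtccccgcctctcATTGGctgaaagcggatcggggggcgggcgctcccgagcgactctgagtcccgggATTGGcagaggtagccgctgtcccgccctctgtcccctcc
Lss, chr10:76531355-76531654, plus strand: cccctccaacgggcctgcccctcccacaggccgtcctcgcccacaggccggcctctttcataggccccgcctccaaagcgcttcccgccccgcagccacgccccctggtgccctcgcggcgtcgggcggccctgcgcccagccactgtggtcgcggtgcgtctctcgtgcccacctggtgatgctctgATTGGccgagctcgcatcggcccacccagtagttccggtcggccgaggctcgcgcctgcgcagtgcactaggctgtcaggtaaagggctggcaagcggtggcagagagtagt
Msmo1, chr8:64733529-64733828, minus strand: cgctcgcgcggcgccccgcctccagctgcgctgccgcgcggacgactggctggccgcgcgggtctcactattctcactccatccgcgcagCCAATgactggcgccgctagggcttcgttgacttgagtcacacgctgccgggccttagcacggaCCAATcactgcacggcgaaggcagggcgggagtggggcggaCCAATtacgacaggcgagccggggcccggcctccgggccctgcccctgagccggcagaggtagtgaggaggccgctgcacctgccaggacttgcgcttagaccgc
Srebf2, chr15:82147019-82147318, plus strand: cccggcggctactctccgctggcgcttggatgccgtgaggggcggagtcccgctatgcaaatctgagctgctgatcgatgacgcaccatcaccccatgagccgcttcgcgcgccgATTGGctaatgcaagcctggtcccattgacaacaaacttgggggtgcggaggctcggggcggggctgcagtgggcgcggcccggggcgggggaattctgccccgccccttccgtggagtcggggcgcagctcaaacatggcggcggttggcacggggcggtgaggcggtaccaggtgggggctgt
Insig1, chr5:28071162-28071461, plus strand: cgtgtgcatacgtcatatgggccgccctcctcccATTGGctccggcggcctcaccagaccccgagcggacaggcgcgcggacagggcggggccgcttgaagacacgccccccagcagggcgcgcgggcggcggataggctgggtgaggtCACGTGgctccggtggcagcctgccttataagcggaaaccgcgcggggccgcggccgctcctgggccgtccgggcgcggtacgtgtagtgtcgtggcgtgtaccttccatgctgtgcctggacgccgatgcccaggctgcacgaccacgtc
Pmvk, chr3:89454291-89454590, plus strand: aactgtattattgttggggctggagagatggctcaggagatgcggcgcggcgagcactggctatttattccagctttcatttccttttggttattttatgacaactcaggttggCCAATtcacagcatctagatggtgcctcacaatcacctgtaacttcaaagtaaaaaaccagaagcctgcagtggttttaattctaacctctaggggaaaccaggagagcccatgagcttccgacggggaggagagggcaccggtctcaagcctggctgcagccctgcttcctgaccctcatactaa
Elovl6, chr3:129532136-129532435, plus strand: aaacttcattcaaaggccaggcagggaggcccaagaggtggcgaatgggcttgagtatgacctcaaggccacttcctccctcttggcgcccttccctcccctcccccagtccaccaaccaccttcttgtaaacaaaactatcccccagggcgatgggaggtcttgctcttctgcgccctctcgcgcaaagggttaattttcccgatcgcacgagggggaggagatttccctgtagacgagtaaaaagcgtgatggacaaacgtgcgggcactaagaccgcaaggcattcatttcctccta

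**Figure D1:**
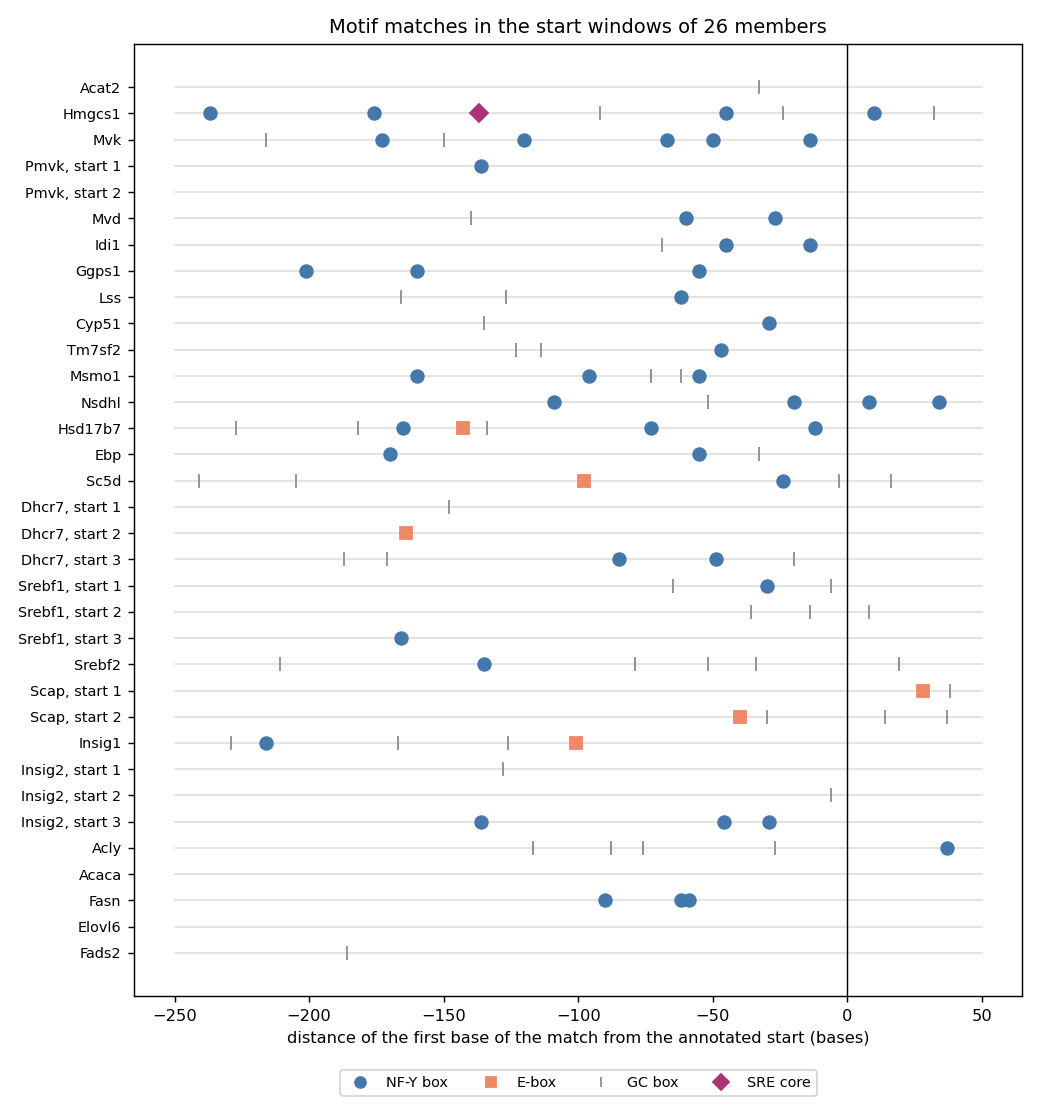
Positions of motif matches (symbols) along the 34 start windows of 26 members, with the distance from the annotated start in bases on the horizontal axis and members ordered by role. CCAAT (circles) lies in 22 of the 34 windows, the only SRE core (diamond) lies in Hmgcs1 at -137, and Acaca and Elovl6 hold no match.

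The 33 members were, as a group, somewhat lower in OIR than in normoxia in both genotypes, but few single genes passed the test. The 19 other synthesis enzymes and regulators given further below did not share this direction in Casp1 KO. In WT, Elovl6 and Srebf2 fell from normoxia to OIR and no member rose at an adjusted p under 0.05 by edgeR's quasi-likelihood test (called genes, below), that is 2 of 33 members, where 2.29% of all 22853 genes tested were called lower and 1.58% higher (3.88% in all). In the libraries labelled Casp1 KO, Hmgcs1, Fdps, Lss, Msmo1 and Elovl6 fell and Pmvk rose, that is 6 of 33, where 2.03% of all 22387 genes were called lower and 2.61% higher (4.64% in all). At an unadjusted p under 0.05 there were 10 members in WT (12.6% of all genes) and 13 in Casp1 KO (13.6%). The fitted log2 difference was below 0 for 25 of 33 members in each genotype, against 47.2% of all genes in WT and 50.2% in Casp1 KO. Its median over the members was -0.26 in WT (0.04 over all genes) and -0.20 in Casp1 KO (-0.002 over all genes). In bulk retina, fewer cells of a type and less RNA per cell cannot be told apart.

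In WT, 11 members had their 3 OIR values below their 3 normoxia values without overlap (8.47% of all genes) and 1 had them above, Pmvk (8.17%). In Casp1 KO this held for 12 members below (8.19%) and 1 above, again Pmvk (9.05%). The OIR comparisons in the 2 genotypes share no library. The 6 members lower without overlap in both were Fdps, Mvd, Fdft1, Msmo1, Insig1 and Elovl6, which is 18.2% of the members against 2.25% of the 20756 genes tested in both genotypes. Among genes kept by edgeR's expression filter (filterByExpr) the shares were 19.4% and 3.22%. The members were chosen with earlier results of these data known, so these shares describe them and are no test. No member separated in opposite directions. By the fitted value, 19 members were lower in both genotypes (57.6%, against 26% of all genes), 2 were higher in both and 12 differed in sign.

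Summed over all 33 members, the level was 1619 ± 42.3 CPM (SD, n = 3) in WT normoxia and 1429 ± 75.1 CPM in WT OIR. It was 1652 ± 12.9 CPM in Casp1 KO normoxia and 1432 ± 49.0 CPM in Casp1 KO OIR. The groups did not overlap in either genotype: the OIR libraries held 1386 to 1516 CPM in WT and 1378 to 1474 CPM in Casp1 KO, against 1570 to 1646 and 1637 to 1661 CPM in normoxia. The sum weighs the abundant members most. The 19 sterol enzymes gave 854 ± 25.7 CPM in WT normoxia and 776 ± 26.3 CPM in WT OIR, and 941 ± 15.5 and 766 ± 11.3 CPM in the Casp1 KO groups. The 8 fatty acid genes gave 528 ± 35.2 and 445 ± 23.2 CPM in WT, and 486 ± 16.1 and 444 ± 28.7 CPM in Casp1 KO. Normoxia and OIR did not overlap in either genotype. In Casp1 KO the gap was narrow, from 463.1 CPM in OIR to 467.8 CPM in normoxia, and 4 of the 8 genes were fitted above 0. The 5 regulators gave 219 ± 7.71 and 189 ± 35.1 CPM in WT and 208 ± 14.95 and 206.5 ± 25.9 CPM in Casp1 KO, and these overlapped.

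**Figure D2:**
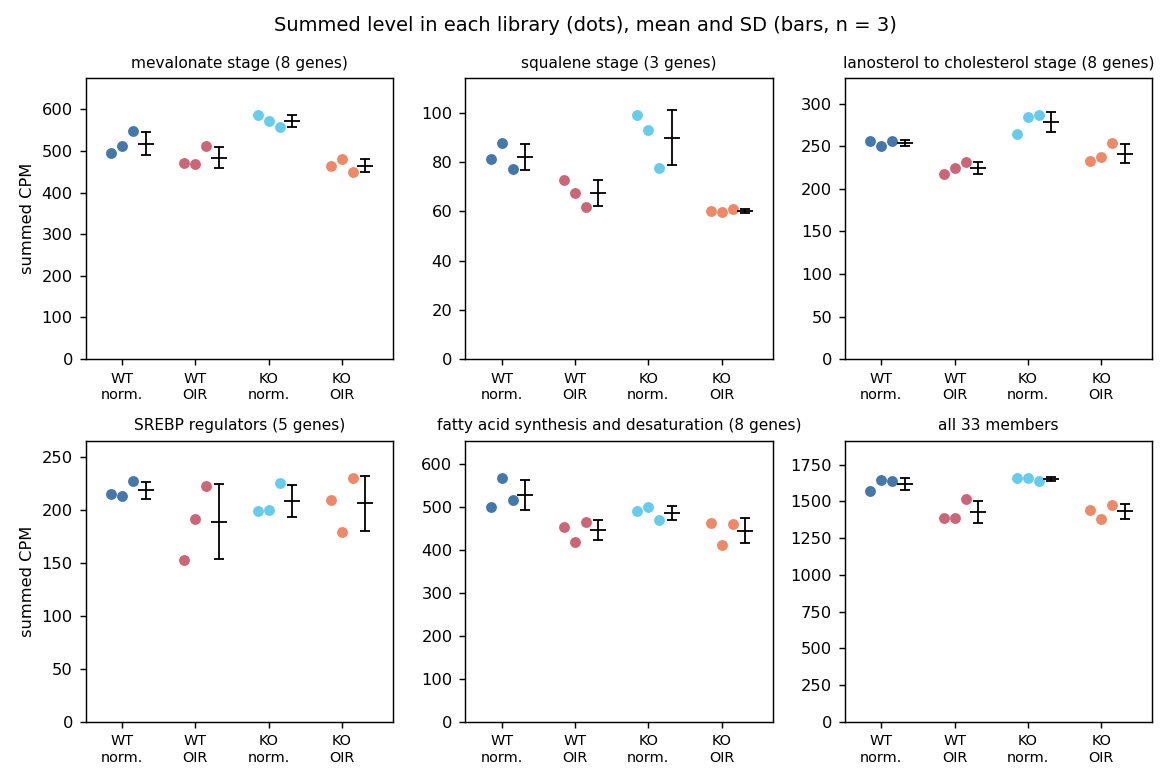
Summed level (CPM, linear axes from 0) of each role group and of all 33 members in the 12 libraries, with the mean and SD of each group of 3 beside the dots. For all 33 members, the OIR libraries lie at 1378 to 1516 CPM and the normoxia libraries at 1570 to 1661 CPM.

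Markers of some cell types moved with OIR too. Summed ganglion cell markers went from 1800 to 2000 CPM in WT normoxia to 927 to 1180 CPM in OIR, with 4 of 5 called lower, and from 2010 to 2170 to 1170 to 1230 CPM in Casp1 KO, with 3 of 5 called lower. Muller glia markers, by contrast, lay at 2040 to 2190 CPM in WT normoxia and 1440 to 1490 CPM in WT OIR (3 of 6 called lower, 1 fitted above 0). In Casp1 KO they lay at 1460 to 1600 CPM in normoxia and 1970 to 2040 CPM in OIR (4 of 6 called higher, 2 fitted below 0). Whether the Muller glia markers bear on the summed members, which were lower in OIR in both genotypes, was not tested. Markers of oligodendrocytes, cells that make much cholesterol for myelin, stood at 253 to 307 CPM in WT normoxia and at 71.1 to 90.6 CPM in WT OIR (5 of 8 called lower). In Casp1 KO they stood at 49.2 to 63.3 CPM in normoxia and 59.6 to 74 CPM in OIR, with 0 of 8 called by edgeR (1 at an unadjusted p under 0.05). Astrocyte and reactive glia markers stood at 163 to 200 CPM in the normoxia groups and 325 to 396 CPM in the OIR groups, but the 4 genes did not move together. In WT 2 were called higher and 2 had fitted values below 0, and in Casp1 KO 2 were called higher and 1 lower. Amacrine cell markers went from 311 to 379 CPM in WT normoxia to 194 to 246 CPM in WT OIR (2 of 4 called lower), and in Casp1 KO from 274 to 292 CPM to 269 to 309 CPM, where edgeR called 0 of 4 (1 at an unadjusted p under 0.05). Retinal pigment epithelium markers went from 895 to 901 CPM in Casp1 KO normoxia to 1240 to 1330 CPM in OIR (3 of 5 called higher). In WT, at 956 to 998 and 837 to 957 CPM, they did not move together: 2 of 5 were called lower and 3 were fitted above 0 (median 0.08). This list shares the gene Rlbp1 with that of Muller glia. Lens markers went from 239 to 263 CPM to 404 to 445 CPM in Casp1 KO (3 of 5 called higher), and in WT stood at 255 to 316 and 147 to 352 CPM, with 0 called by edgeR (1 at an unadjusted p under 0.05). Red blood cell markers stood at 117 to 140 CPM in WT normoxia and 81.6 to 375 CPM in WT OIR (3 of 4 called higher), and at 142 to 146 and 124 to 161 CPM in Casp1 KO. Microglia markers stood at 45.5 to 59 CPM in WT normoxia and 70.8 to 87.6 CPM in WT OIR. In Casp1 KO they stood at 41.4 to 53.6 and 70.9 to 92.9 CPM, with 1 of 5 called higher in each genotype. Endothelial markers stood at 85.9 to 96.1 and 99.8 to 152 CPM in WT (1 of 4 called higher). In Casp1 KO they stood at 95.9 to 110 and 99.4 to 120 CPM, with 0 called by edgeR. Of the rod, cone and bipolar cell lists, at most 1 gene per list was called in WT. In Casp1 KO, 2 of 5 rod markers were called higher and 1 lower, and of 4 cone markers 1 each way. No bipolar marker was called there. The part of these cell types in the members' differences was not tested.

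**Figure D3:**
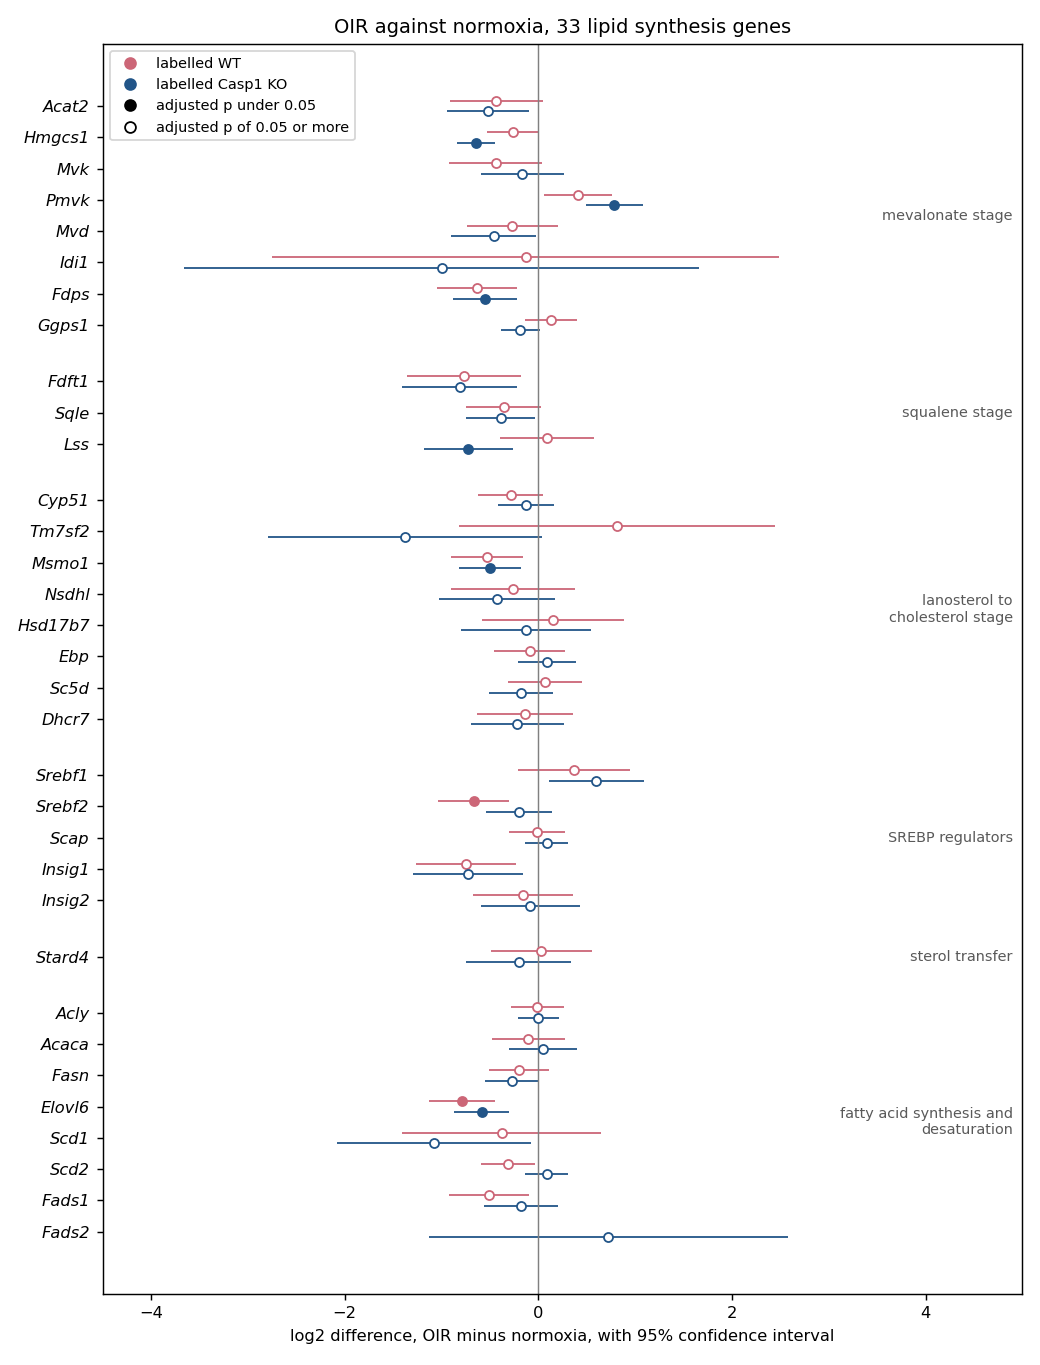
Log2 difference between OIR and normoxia for each member with its 95% confidence interval, in the libraries labelled WT (red) and Casp1 KO (blue), grouped by role. Filled points had an adjusted p under 0.05 by edgeR, and most points of either colour lie left of 0. Fads2 has no WT point because its WT OIR libraries held 3 reads in all.

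In the mevalonate stage, which turns acetyl-CoA into farnesyl and geranylgeranyl diphosphate, 6 of 8 genes were fitted below 0 in WT (median -0.27) and 7 of 8 in Casp1 KO (median -0.49). Hmgcs1 encodes the cytosolic HMG-CoA synthase of an early step of the route, and lies at chr13:119690379-119708260 on the plus strand. Its level was 224, 227 and 193 CPM in Casp1 KO normoxia and 135, 135 and 139 CPM in Casp1 KO OIR. The OIR libraries were all lower and close to each other, and the log2 difference was -0.64 ± 0.10 (SE, n = 3 and 3, edgeR adjusted p = 2.2e-08). In WT it was 178, 194 and 222 CPM in normoxia and 159, 153 and 187 CPM in OIR, which overlapped, with a log2 difference of -0.26 ± 0.14 (adjusted p = 0.396). Without WT OIR replicate 3 the difference in WT was -0.35 ± 0.12 (adjusted p = 0.0501).

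Pmvk, phosphomevalonate kinase (chr3:89454541-89469013, plus strand), went the other way from its pathway. It stood at 45.6, 32.8 and 54.8 CPM in Casp1 KO normoxia and 73.2, 88.0 and 67.5 CPM in Casp1 KO OIR. All OIR libraries were above all normoxia libraries, with a log2 difference of 0.79 ± 0.15 (edgeR adjusted p = 1.68e-05). In WT the values were 38.9, 41.3 and 52.6 CPM in normoxia and 64.7, 57.1 and 55.6 CPM in OIR, again without overlap, with 0.41 ± 0.18 (adjusted p = 0.261). The neighbouring enzymes in the route, Mvk and Mvd, had fitted differences of -0.44 and -0.27 in WT and -0.16 and -0.46 in Casp1 KO, and neither passed the test.

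Fdps, farnesyl diphosphate synthase (chr3:89093588-89101959, minus strand), fell in Casp1 KO. Its level was 56.3, 52.6 and 51.4 CPM in Casp1 KO normoxia and 34.5, 44.2 and 29.8 CPM in Casp1 KO OIR. The groups did not overlap, and the log2 difference was -0.55 ± 0.17 (edgeR adjusted p = 0.0309). In WT it was 40.3, 43.3 and 38.7 CPM in normoxia and 24.5, 27.1 and 28.2 CPM in OIR, also without overlap, but the difference of -0.63 ± 0.21 had an adjusted p of 0.0635, and 0.0407 without WT OIR replicate 3. The Casp1 KO call was lost without any 1 of 5 of its 6 libraries, all but OIR replicate 2, and its adjusted p ran from 0.00604 to 0.230 over 12 alternatives. Of the other genes of the stage, Acat2, the cytosolic thiolase of the first step, and Ggps1, which makes geranylgeranyl diphosphate, were lower without overlap in Casp1 KO, at -0.52 ± 0.22 (adjusted p = 0.193) and -0.19 ± 0.10 (adjusted p = 0.416). Idi1, the isomerase that makes dimethylallyl diphosphate, had 2 to 13 reads per library and no usable precision.

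**Figure D4:**
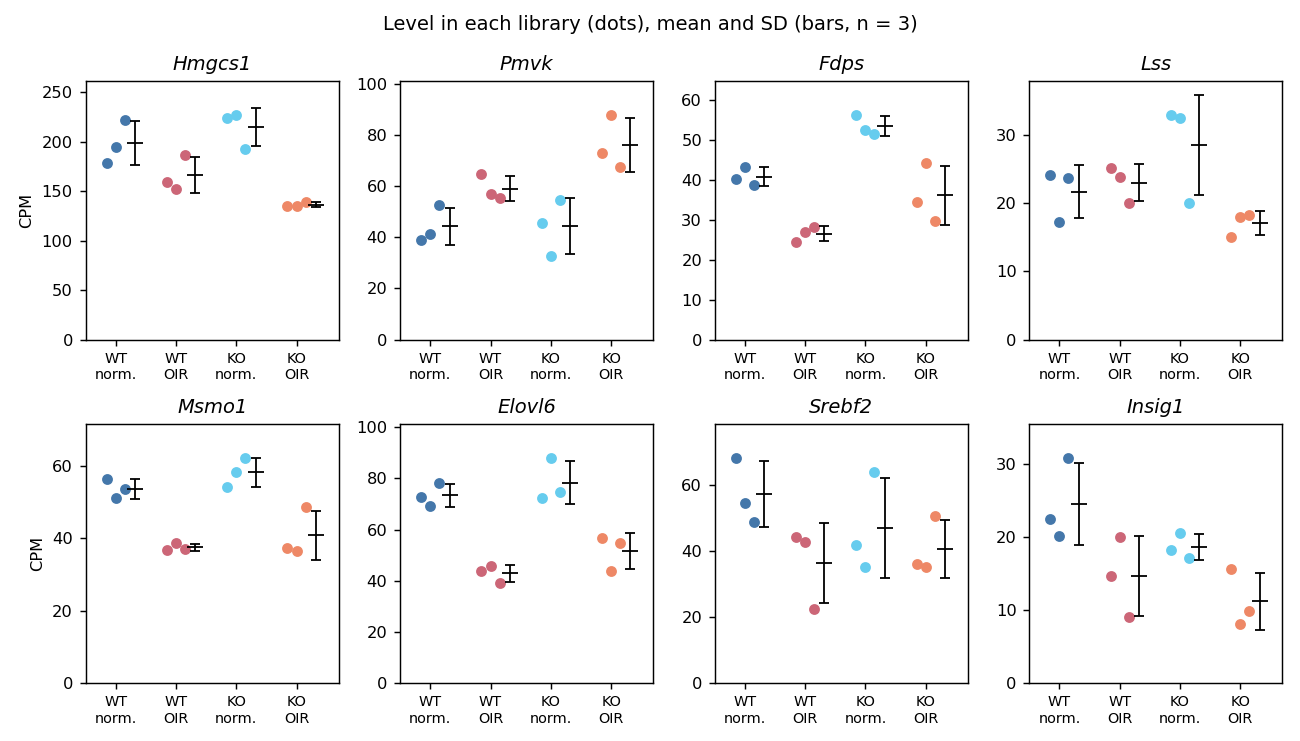
Level (CPM, linear axes from 0) of the 7 members called in at least 1 comparison and of Insig1 in each library, with the mean and SD of each group of 3. Pmvk is higher and Fdps, Msmo1, Elovl6 and Insig1 are lower in all OIR libraries than in all normoxia libraries of the same genotype.

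In the squalene stage, Lss, lanosterol synthase (chr10:76531588-76557138, plus strand), fell in Casp1 KO. Its level was 33, 32.5 and 20.04 CPM in Casp1 KO normoxia and 15.1, 17.96 and 18.3 CPM in Casp1 KO OIR, narrowly without overlap, with a log2 difference of -0.72 ± 0.24 (edgeR adjusted p = 0.048). In WT it was 24.2, 17.2 and 23.7 CPM in normoxia and 25.2, 23.9 and 19.99 CPM in OIR, which overlapped, with 0.09 ± 0.25 (adjusted p = 0.91). The call in Casp1 KO was lost without any 1 of its 6 libraries except normoxia replicate 3, and its adjusted p ran from 0.0177 to 0.32 over 12 alternatives. Fdft1, squalene synthase, was lower without overlap in both genotypes, at -0.77 ± 0.30 in WT (adjusted p = 0.165) and -0.81 ± 0.30 in Casp1 KO (adjusted p = 0.115). Sqle, squalene epoxidase, gave -0.36 ± 0.20 in WT and -0.39 ± 0.18 in Casp1 KO, and passed the test in neither. The summed level of the 3 genes was 82.2 ± 5.33 CPM in WT normoxia, 67.4 ± 5.38 CPM in WT OIR, 90.0 ± 11.2 CPM in Casp1 KO normoxia and 60.3 ± 0.756 CPM in Casp1 KO OIR.

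Between lanosterol and cholesterol, Msmo1, the C-4 methylsterol oxidase (chr8:64718139-64733792, minus strand), fell in Casp1 KO. It stood at 54.3, 58.4 and 62.3 CPM in Casp1 KO normoxia and 37.4, 36.6 and 48.7 CPM in Casp1 KO OIR, without overlap, with a log2 difference of -0.50 ± 0.16 (edgeR adjusted p = 0.0488). In WT it stood at 56.5, 51.1 and 53.7 CPM in normoxia and 36.7, 38.7 and 37.1 CPM in OIR, again without overlap and with a difference of like size, -0.53 ± 0.19, whose adjusted p was 0.0979. The call in Casp1 KO was lost without any 1 of its 6 libraries except OIR replicate 3, and its adjusted p ran from 0.0166 to 0.244 over 12 alternatives. The other 7 genes of the stage did not pass the test in either genotype. Cyp51, the lanosterol demethylase, gave -0.29 and -0.13 in WT and Casp1 KO, Nsdhl, which takes part in C-4 demethylation, gave -0.26 and -0.42, and Hsd17b7, the ketosteroid reductase of the same step, gave 0.15 and -0.13. Ebp, the sterol isomerase, gave -0.09 and 0.09, Sc5d, the desaturase after it, gave 0.07 and -0.18, and Dhcr7, the reductase that makes cholesterol, gave -0.14 and -0.22. Tm7sf2, a sterol C-14 reductase, had 5 to 34 reads per library, and its fitted values of 0.81 ± 0.83 in WT and -1.38 ± 0.72 in Casp1 KO are imprecise. Stard4, a carrier of cholesterol between membranes, gave 0.03 ± 0.27 and -0.20 ± 0.28.

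Among the regulators, Srebf2, which encodes SREBP2, the main activator of the sterol enzymes (chr15:82147181-82205379, plus strand), fell in WT. Its level was 68.2, 54.5 and 48.7 CPM in WT normoxia and 44.1, 42.7 and 22.4 CPM in WT OIR. The groups did not overlap, with a log2 difference of -0.67 ± 0.19 (edgeR adjusted p = 0.0144), but the lowest value is that of WT OIR replicate 3. Without that library the difference was -0.41 and the adjusted p 0.242, and without WT normoxia replicate 1 they were -0.53 and 0.264, within a range of 0.00418 to 0.264 over 13 alternatives. In Casp1 KO, Srebf2 stood at 41.8, 35.2 and 64.0 CPM in normoxia and 36.0, 35.0 and 50.6 CPM in OIR, which overlapped, with -0.20 ± 0.17 (adjusted p = 0.631). Insig1, which retains SREBPs in the endoplasmic reticulum and is itself an SREBP target, stood at 22.6, 20.2 and 30.9 CPM in WT normoxia and 14.7, 20.1 and 9.09 CPM in WT OIR. In Casp1 KO it stood at 18.2, 20.6 and 17.2 CPM in normoxia and 15.6, 8.10 and 9.87 CPM in OIR. Neither genotype showed overlap, though WT OIR replicate 2 lay just under the lowest normoxia library, and the differences of -0.75 ± 0.27 in WT (adjusted p = 0.0974) and -0.73 ± 0.29 in Casp1 KO (adjusted p = 0.169) missed the threshold. Without WT OIR replicate 3, the lowest library, the WT difference of Insig1 was -0.48 (adjusted p = 0.443). It passed the threshold without WT OIR replicate 2 (-1.05, adjusted p = 0.0356, range 0.0356 to 0.536) and, in Casp1 KO, without OIR replicate 1 (-1.045, adjusted p = 0.0453, range 0.0453 to 0.505).

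Srebf1 encodes SREBP1, whose SREBP1c form drives fatty acid genes, and its fitted differences were above 0. It stood at 16.2, 10.95 and 13.1 CPM in WT normoxia and 10.04, 14.2 and 27.3 CPM in WT OIR, which overlapped, with 0.37 ± 0.29 (edgeR adjusted p = 0.603). The highest value is WT OIR replicate 3, and without it the difference was -0.13. In Casp1 KO, Srebf1 stood at 10.9, 15.1 and 21.7 CPM in normoxia and 20.2, 17.5 and 33.5 CPM in OIR, with 0.60 ± 0.25 (adjusted p = 0.201). Scap, the SREBP escort, stood at 89.2, 107 and 113 CPM in WT normoxia and 70.8, 94.3 and 143 CPM in WT OIR (-0.01 ± 0.15), so replicate 3 was again the extreme library. In Casp1 KO it stood at 110, 112 and 101 CPM in normoxia and 115, 105 and 120 CPM in OIR (0.09 ± 0.12). Insig2, the second INSIG, stood at 19.4, 20.3 and 21.96 CPM in WT normoxia and 13.5, 20.1 and 21.8 CPM in WT OIR (-0.16 ± 0.26). It stood at 18.4, 16.9 and 21.5 CPM in Casp1 KO normoxia and 23.1, 13.6 and 16.5 CPM in Casp1 KO OIR (-0.08 ± 0.26). Scap and Insig2 overlapped between the groups in both genotypes.

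Of the fatty acid genes, Elovl6, which elongates palmitate to stearate (chr3:129532355-129638495, plus strand), fell in both genotypes. Its level was 72.8, 69.2 and 78.1 CPM in WT normoxia and 43.6, 45.8 and 39.1 CPM in WT OIR. In Casp1 KO it was 72.2, 88.0 and 74.9 CPM in normoxia and 56.7, 43.6 and 54.7 CPM in OIR. All OIR libraries lay below all normoxia libraries, with log2 differences of -0.79 ± 0.18 in WT (edgeR adjusted p = 0.000609) and -0.58 ± 0.14 in Casp1 KO (adjusted p = 0.00272). Elovl6 was called in WT under all 13 alternatives, and in Casp1 KO under 11 of 12, the exception being the fit without normoxia replicate 2 (adjusted p = 0.056, range 0.0019 to 0.056).

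The fitted differences of the 8 fatty acid genes were all below 0 in WT and split 4 to 4 in Casp1 KO, though those of Acly, Acaca and Scd1 in WT and of Acly, Acaca and Scd2 in Casp1 KO changed sign under at least 1 alternative. The enzymes of bulk synthesis had small ones. Acly, which makes cytosolic acetyl-CoA, gave -0.01 ± 0.14 in WT and 0.001 ± 0.11 in Casp1 KO. Acaca, acetyl-CoA carboxylase, gave -0.10 ± 0.19 and 0.05 ± 0.18, and Fasn, fatty acid synthase, gave -0.20 ± 0.16 and -0.27 ± 0.14. None of these 3 separated the groups. Scd2, a stearoyl-CoA desaturase, stood at 139 to 149 CPM in WT normoxia and 107 to 135 CPM in WT OIR, without overlap, with -0.31 ± 0.14 (edgeR adjusted p = 0.302), or 0.0271 at -0.42 ± 0.13 without WT OIR replicate 3. In Casp1 KO it gave 0.09 ± 0.11. Its paralog Scd1, at 9 to 169 reads per library, gave -0.38 ± 0.52 and -1.08 ± 0.51 (adjusted p = 0.309), and reads that match both paralogs cannot be placed with certainty. Fads1, the delta-5 desaturase of polyunsaturated fatty acids, was lower without overlap in WT (-0.51 ± 0.21, adjusted p = 0.212) and gave -0.18 ± 0.20 in Casp1 KO. Fads2, the delta-6 desaturase, had 6 to 38 reads per library in WT normoxia, 0, 3 and 0 reads in WT OIR, and 2 to 18 reads in the Casp1 KO libraries, too few for a fold.

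Between the libraries labelled Casp1 KO and WT, a comparison whose labels Casp1 contradicts, 0 of 33 members were called by edgeR in normoxia, where 1.04% of all genes were called, and 0 of 33 in OIR, where 0.575% were. DESeq2 called 0 in each as well, and 2 members in normoxia and 5 in OIR had an unadjusted p under 0.05, against 8.63% and 8.36% of all genes. In normoxia 4 members were higher without overlap in Casp1 KO (6.11% of all genes) and 1 lower (6.35%), and in OIR 4 were higher (5.41%) and 3 lower (6.52%). Of the 19 sterol enzymes, 17 were fitted higher in the normoxia libraries labelled Casp1 KO, with a median of 0.14 against 0.006 over all genes, of which 49.4% were fitted lower. Fdps gave 0.39 ± 0.16 there (adjusted p = 0.377) and Lss 0.42 ± 0.22 (adjusted p = 0.597). In OIR the sterol enzymes split into 9 higher and 10 lower, with a median of -0.01, and 53.4% of all genes were fitted lower. Without WT OIR replicate 3, Srebf1 (0.98 ± 0.29, adjusted p = 0.0297) and Scap (0.47 ± 0.14, adjusted p = 0.0375) were higher in the OIR libraries labelled Casp1 KO, where the full set gave 0.46 ± 0.26 and 0.14 ± 0.15. Calls over all genes also rose in that fit, to 815 of 22320 genes from 131 of 22774 in the full set.

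The response to OIR was also compared between the genotypes by an interaction term over all 12 libraries, and 0 of 33 members were called by edgeR or by DESeq2, where edgeR called 1.13% of all 24484 genes. An unadjusted p under 0.05 was found for 6 members (9.77% of all genes). For Hmgcs1, called in Casp1 KO alone, the difference in response (Casp1 KO minus WT) was -0.40, with a 95% confidence interval of -0.73 to -0.07 (adjusted p = 0.345). For Lss it was -0.84, with an interval of -1.51 to -0.16 (adjusted p = 0.32), and for Srebf2 0.45, with an interval of -0.05 to 0.94 (adjusted p = 0.586). The intervals for Msmo1 (-0.48 to 0.49), Fdps (-0.47 to 0.58), Elovl6 (-0.27 to 0.62) and Insig1 (-0.74 to 0.73) span 0. A call in 1 genotype and not in the other is thus not shown to be a difference between them for any member.

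Of 69 further lipid genes in 4 lists, few were called. Among 19 other synthesis enzymes and regulators, 0 were called in WT by edgeR (3 at an unadjusted p under 0.05) and 1 rose in Casp1 KO. By fitted value, 9 of the 19 were above 0 and 10 below in WT (median -0.045). In Casp1 KO 16 were above 0 and 3 below (median 0.17). In Casp1 KO, Acsl3, an acyl-CoA synthetase, rose from 543, 518 and 501 CPM in normoxia to 723, 620 and 640 CPM in OIR, without overlap, with a log2 difference of 0.36 ± 0.08 (edgeR adjusted p = 0.000171).

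Of 22 genes of sterol uptake, transport, efflux and breakdown, 1 rose in WT and 3 rose in Casp1 KO, and none was called lower. Abca1, the exporter that loads cholesterol onto apolipoproteins, rose in both. It stood at 15.6, 24.2 and 15 CPM in WT normoxia and 32.1, 42.4 and 48.2 CPM in WT OIR, and at 15.5, 18.9 and 16.7 CPM and 36.5, 27.8 and 40.3 CPM in the Casp1 KO groups. The log2 differences were 1.12 ± 0.22 in WT (edgeR adjusted p = 5.6e-05) and 1.05 ± 0.22 in Casp1 KO (adjusted p = 0.000194), called under all 13 and all 12 alternatives. Apoe, the main apolipoprotein of glial lipid particles, rose in Casp1 KO from 483, 480 and 488 CPM to 861, 1036 and 828 CPM (0.92 ± 0.07, adjusted p = 9.2e-33). In WT its groups overlapped, at 676, 716 and 609 CPM and 759, 668 and 760 CPM. Npc2, which moves cholesterol out of lysosomes, rose by 0.70 ± 0.12 in Casp1 KO (adjusted p = 2.9e-07). Apoe is also made by Muller glia. The summed markers of that cell type, given above, were higher in OIR in Casp1 KO as well, though 2 of 6 were fitted below 0. Whether that bears on Apoe was not tested.

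Among 13 lipid storage genes, Plin3, a lipid droplet coat protein, rose in Casp1 KO from 7.11, 3.78 and 9.18 CPM to 15.8, 22.6 and 22.2 CPM, with 1.585 ± 0.32 (edgeR adjusted p = 4.6e-05), and none was called in WT (3 at an unadjusted p under 0.05). Of 15 genes of fatty acid oxidation, 0 were called in either genotype by edgeR, with 0 and 1 at an unadjusted p under 0.05. Between the genotypes, Acsl3 (-0.35 ± 0.07, adjusted p = 0.000341) and Apoe (-0.46 ± 0.07, adjusted p = 2.5e-07) were lower in the normoxia libraries labelled Casp1 KO. The Acsl3 call was lost with all 12 libraries in 1 fit (-0.36, adjusted p = 0.0643), 1 of 13 alternatives. In the same normoxia comparison, 4 of 6 Muller glia and 7 of 8 oligodendrocyte markers were called lower in Casp1 KO. So were 3 of 5 bipolar and 1 of 5 retinal pigment epithelium markers. The part of these cell types in the values of Acsl3 and Apoe was not tested. In OIR, Abcg1, a sterol exporter (0.68 ± 0.18, adjusted p = 0.0353), was higher in the libraries labelled Casp1 KO. The call was lost without any 1 of 5 of the 6 libraries, all but WT OIR replicate 3, with adjusted p-values from 0.000191 to 0.47 over 12 alternatives.

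**Figure D5:**
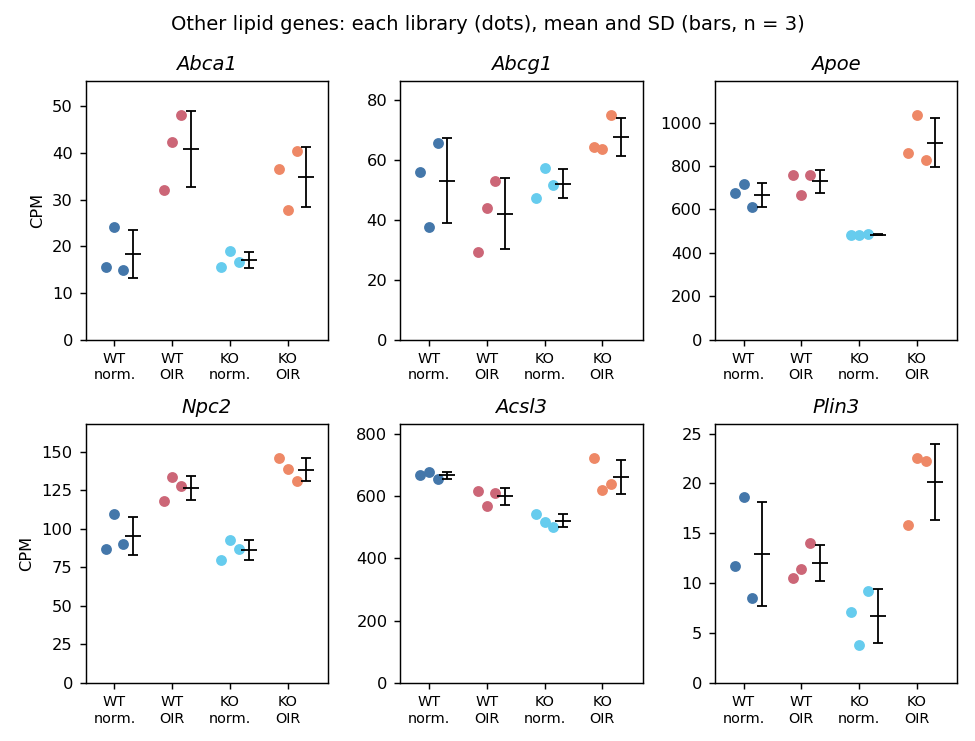
Level (CPM, linear axes from 0) of 6 further lipid genes in each library, with the mean and SD of each group of 3. Abca1 and Npc2 are higher in all OIR libraries than in all normoxia libraries of the same genotype, and Apoe reaches 828 to 1036 CPM in Casp1 KO OIR.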

How the data were processed

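QuantSeq 3' libraries of retinal RNA were sequenced as single reads of 75 bases. The authors aligned the reads to mm10 and counted them per gene, and the deposited table holds these counts as whole numbers without normalization. The submitters' processing notes name STAR 2.7.5a, HTSeq 0.6.1 and edgeR. Which annotation and strand setting were used, and how multi-mapping reads were treated, is not given in the sources used here, so counts of the 12 members whose exons overlap another gene (Hmgcs1, Idi1, Fdps, Ggps1, Fdft1, Lss, Cyp51, Tm7sf2, Srebf1, Scap, Elovl6 and Scd2) and of close paralogs are uncertain.

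Groups were taken from the labels. The 33 members and the other lists were chosen with earlier results of these data known. Counts were fitted with edgeR 4.0.16 in R 4.3.3 (TMM, a minimum total count of 1 per gene, glmQLFit and glmQLFTest), on the 6 libraries of each comparison or, for the interaction, on all 12. P-values were adjusted over all genes tested by the Benjamini-Hochberg method with a threshold of 0.05. Levels are CPM on the TMM scale. Standard errors and 95% confidence intervals were derived from the log2 fold change (prior count 0.125) and the test statistic. Their degrees of freedom were so large that the spread was in effect shared among genes and was not a gene's own. In WT, Msmo1 and Srebf2 had standard errors of 0.188 and 0.187, though the replicates of Srebf2 scattered more. The fits were tested on simulated data. Values in every library are given for members called in any comparison and for the 5 regulators, and of the other lipid genes those called are named, at most 6 per list. A count of 0 allows up to 3 reads, or 0.134 to 0.872 CPM, counting error only. Positions come from GENCODE vM21 (GRCm38, the build mm10) and start windows from RefSeq. Alternatives were other size factors, DESeq2 1.42.0, 2 stricter filters, all 12 libraries in 1 fit, a block for the replicate number, WT normoxia replicate 2 thinned, and each library left out in turn. A protein comparison of paralogous members was planned and is not analysed here. Results for some other lipid genes are not reported here.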

Additional observations from a re-analysis of the deposited data

Results flagged for a closer look

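A test of the difference between responses flagged 3 further lipid genes. They responded to OIR differently in the libraries labelled WT and Casp1 KO by the interaction term of edgeR's quasi-likelihood test over all 12 libraries, and each value is the Casp1 KO response minus the WT response on the log2 scale. Apoe gave 0.78 ± 0.14 (SE, adjusted p = 1.2e-05, from 1.0e-09 to 0.00263 over 18 alternatives), with all 3 Casp1 KO OIR libraries above all Casp1 KO normoxia libraries while its WT groups overlapped. Plin3 gave 1.72 ± 0.45 (adjusted p = 0.0185, from 0.00601 to 0.227). Its call was lost under 8 of the 18 alternatives, among them the fits without WT normoxia replicate 2 (1.34, adjusted p = 0.227), WT OIR replicate 2 (0.059), Casp1 KO normoxia replicate 2 (0.128), Casp1 KO OIR replicate 2 (0.0798) and Casp1 KO OIR replicate 3 (0.0616). Acsl3 gave 0.50 ± 0.14 (adjusted p = 0.0374, from 0.00138 to 0.166). Its call was lost under 7 of 18, each a fit without 1 library: WT normoxia replicate 1 or 2, WT OIR replicate 2, any of the Casp1 KO normoxia replicates, or Casp1 KO OIR replicate 1. Some markers of several cell types gave interaction terms of the same sign as these genes, and others did not. The term was called above 0 for 3 of 6 Muller glia markers (median 0.80), 3 of 5 of retinal pigment epithelium (0.86) and 3 of 5 of lens (0.96). In each of these 3 lists 1 marker was fitted below 0. It was also called above 0 for 5 of 8 markers of oligodendrocytes (3.29), 1 of 4 of amacrine cells (0.68) and 1 of 5 of bipolar cells (0.26). The term was called below 0 for 2 of 4 of red blood cells (-1.26). The Muller glia and retinal pigment epithelium lists share the gene Rlbp1. Their part in the values of Apoe, Plin3 and Acsl3 was not tested. Casp1 reads go against the genotype labels, so which genotype shows the larger response is known only by label. None of the 33 members had such a difference at this threshold.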

How the results depend on the processing

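The count of members called between OIR and normoxia in WT, 2, became 1 with DESeq2, 1 with filterByExpr and 1 with a minimum of 10 counts per library, and 1 to 3 with 1 library left out (1 without WT normoxia replicate 1). In Casp1 KO the count of 6 became 3 with DESeq2 and 3 with all 12 libraries in 1 fit, and 2 to 4 with 1 library left out (2 without Casp1 KO normoxia replicate 2, 3 without Casp1 KO normoxia replicate 1). Hmgcs1, Pmvk and Elovl6 were called in Casp1 KO by DESeq2, and Elovl6 in WT. Between genotypes in OIR the count of 0 became 2 without WT OIR replicate 3, and 0 to 2 over the libraries left out. In normoxia and for the interaction it was 0 under every alternative run. Replicate numbers did not pair the libraries (correlations of same-numbered deviations from -0.0281 to 0.0349 over 4 comparisons). With the replicate number as a block the count was 2 in WT and 5 in Casp1 KO, Lss being lost (adjusted p = 0.0597), and 0 in the other 3 comparisons. The fitted difference changed sign under at least 1 alternative for 13 of 33 members in WT, among them all regulators but Srebf2 and Insig1, and for 7 in Casp1 KO, none of them called. Where all 33 could be fitted, 21 to 27 were below 0 in WT (27 without WT OIR replicate 3) and 24 to 27 in Casp1 KO. The values of the regulators that changed sign follow. Scap in WT ranged from -0.32 to 0.19 with 1 library left out. It gave 0.004445 with DESeq2 size factors, 0.003066 with DESeq2, 0.00799 with the minimum of 10 counts, and 0.02028, 0.05435, 0.1889 and 0.04891 without WT normoxia replicate 2 or 3 or WT OIR replicate 1 or 2. Srebf1 in WT ranged from -0.1304 (without WT OIR replicate 3) to 0.6335, and Insig2 in WT from -0.29 to 0.01578 (without WT OIR replicate 1). In Casp1 KO, Srebf2 ranged from -0.4012 to 0.08719 (without normoxia replicate 3) and Insig2 from -0.3306 to 0.05896 (without OIR replicate 2), with 0.01844 without normoxia replicate 3. The members' median was between -0.29 and -0.16 in WT and between -0.32 and -0.20 in Casp1 KO. Counts over all genes moved by more than 1.5 times in these cases. In WT (886) they became 586 with filterByExpr and 545, 580 and 581 without WT normoxia replicates 1, 2 and 3. In Casp1 KO (1038) they became 642 with all 12 libraries. Between genotypes in normoxia (233) they became 453 with DESeq2, 109 with all 12 libraries and 143 and 128 without Casp1 KO normoxia replicates 2 and 3. In OIR (131) they became 82 with DESeq2, 16 with filterByExpr, 17 with the minimum of 10 counts, 255 with all 12 libraries and 47 to 815 with 1 library left out. For the interaction (277) they became 139 and 152 with the 2 filters and 174 to 597 with 1 library left out. The causes were not tested. The depth of 3391203 to 22815830 counts limits Idi1, Tm7sf2, Scd1 and Fads2 most.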
